A study of Rattus norvegicus with 5 samples.

Results

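Myocytes of a culture given TBX18 for 14 days were set beside myocytes of a culture given GFP for the same time. They were the cells in which the summed level of 3 sarcomere genes was more than 2 times that of 3 collagen genes, in CPM, a gene's molecules scaled to a fixed total within a cell. The sarcomere sum, M, takes Tnnt2 (cardiac troponin T), Actc1 (cardiac alpha-actin) and Myh6 (alpha-myosin heavy chain). The collagen sum, S, takes Col1a1, Col1a2 and Col3a1, the chains of the fibrillar collagens type I and type III. The rule took 2869 cells of the 38019 in the series, namely 1782 of 6424 barcodes with GFP and 1087 of 8337 with TBX18. Their identity as myocytes rests on the 6 genes that chose them.

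All libraries came from ventricles of wild type Sprague dawley rats at postnatal day 2, cultured as a mixture of myocytes and non-myocytes. The control culture received an adenovirus with GFP and the other an adenovirus with TBX18, each for 14 days and neither with A83-01. Further libraries held GFP or TBX18 at day 3, and TBX18 with 0.2 µM A83-01, an inhibitor of TGF-beta receptors, which its title places at day 14 and its treatment label at 3 days. Every group has 1 library, and the number of animals or cultures behind it is not given in the sources used here, so that no difference between groups could be tested, no p-value is given, and the 95% intervals cover counting error only.

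TBX18 is a T-box transcription factor of the embryonic sinus venosus, the region that gives rise to the head of the sinoatrial node, where the heartbeat starts. Working ventricular myocytes are filled with sarcomeres, whereas pacemaker cells are small and poor in contractile filaments. The title of the series places the experiment in the conversion of ventricular myocytes to pacemaker cells by this factor. Fibroblasts, the main collagen makers of the heart, grow beside the myocytes in such cultures.

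The share of cells taken was 27.7% (26.6 to 28.9) with GFP and 13.0% (12.3 to 13.8) with TBX18. Cells with S more than 2 times M, called collagen-high here, made up 65.8% and 84.3%. The remaining 415 cells with GFP and 223 with TBX18 met neither condition. Median depth was 14553 UMIs (tagged RNA molecules) per myocyte with GFP and 15473 with TBX18. Thinned to 5000 UMIs, a myocyte held a median of 1621 genes with GFP and 1805 with TBX18. Barcodes shared between 2 libraries numbered from 7 to 20 per pair, and 1 was shared by the myocytes of both libraries.

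**Figure D1:**
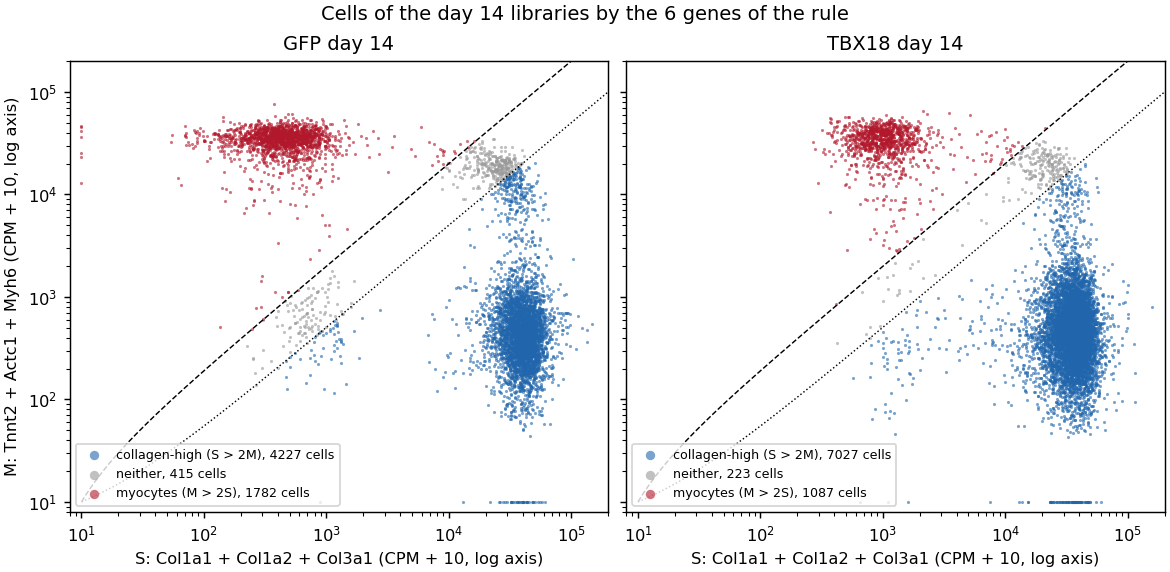
Each point is a cell of the day 14 libraries, with the collagen sum S on the x axis and the sarcomere sum M on the y axis (CPM plus 10, log axes). The 1782 GFP and 1087 TBX18 myocytes lie above the dashed line where M is 2 times S, and the myocyte cloud of the TBX18 library sits further to the right, at a median S of 1004 CPM against 431 CPM.

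Some cells lay near the line of the rule, and the size of some ratios given below moved when it was set at M > S. With M over S between 2 and 4 there were 29 GFP and 41 TBX18 myocytes, and between 1 and 2 there were 139 and 92 cells left outside. The 3 TBX18 cells just inside had ratios of 2.05, 2.11 and 2.12, and the 3 just outside 1.99, 1.97 and 1.95. In the GFP library 6 cells had a ratio of 2 within 0.0001, and 3 of these were taken. A margin this small can come from rounding of the deposited values, so these 3 may be exact ties. M was under 10000 CPM in 33 GFP and 45 TBX18 myocytes.

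The virus features checked the labels first. hTBX18, the human TBX18 transcript of the virus, had 160 UMIs in the TBX18 myocytes, a level of 9.10 CPM (7.74 to 10.6). It had 0 UMIs in the GFP myocytes, so that it was at least 80.9-fold higher with TBX18 when 3 counts are taken for the GFP library. ZsGFP, a green fluorescent protein listed beside it, had 144 UMIs or 8.19 CPM (6.90 to 9.64) against 0. EGFP had 4331 UMIs in the GFP myocytes, 162 CPM (158 to 167), and 0 in the TBX18 myocytes, so that it was at least 952-fold lower there by the same floor. The features Dsred, hSHOX2 and hTBX3 listed in both tables had 0 UMIs in each.

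A transgene UMI was found in a minority of the TBX18 myocytes. hTBX18 was present in 10.1% of them (8.39 to 12.1) and in 4.05% (2.96 to 5.40) after thinning to 5000 UMIs. In the collagen-high cells of the same library these shares were 1.39% and 0.541%, at a median depth of 15502 UMIs. ZsGFP was present in 9.29% of the TBX18 myocytes, and EGFP in 44.7% of the GFP myocytes. ZsGFP was found in 38.2% of the 110 TBX18 myocytes positive for hTBX18 and in 6.04% of those negative for it. Myocytes with either transgene were deeper, with a median of 17931 UMIs against 15037 UMIs. Most TBX18 myocytes thus had no transgene UMI, and at this depth such a cell cannot be taken as free of the virus.

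The sarcomere genes of the rule differed little in level between the libraries, and these values are a description because the same genes chose the cells. Tnnt2, which anchors the troponin complex to the thin filament, stood at 11561 CPM with GFP and 12911 CPM with TBX18 (log2 ratio of TBX18 over GFP 0.16, interval 0.15 to 0.17). Actc1, the actin of the cardiac thin filament, stood at 10403 CPM and 9917 CPM (log2 ratio -0.07, -0.08 to -0.06). Myh6, the fast myosin motor of the rodent heart, stood at 12049 CPM and 10255 CPM (log2 ratio -0.23, -0.24 to -0.22). The furthest of the 3, Myh6, was 1.17-fold lower with TBX18, and the order of the genes differed, with Myh6 first under GFP and Tnnt2 first under TBX18. Myh6 took 35.4% of the UMIs of M with GFP and 31.0% with TBX18, and Tnnt2 took 34.0% and 39.0%.

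Cells were more spread in the TBX18 library for all 3 genes. The quartiles of Myh6 per cell were 9096 and 14945 CPM with GFP and 6756 and 13831 CPM with TBX18. For Actc1 they were 8363 and 12831 CPM with GFP and 6275 and 13066 CPM with TBX18. The 5th percentile of Myh6 was 3526 CPM with GFP and 1689 CPM with TBX18. The low end of the sarcomere genes therefore reached further down with TBX18, while 95th percentiles of Myh6 were 19576 and 19505 CPM. Cells without a Myh6 UMI made up 0.224% and 0.184% of the myocytes.

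**Figure D2:**
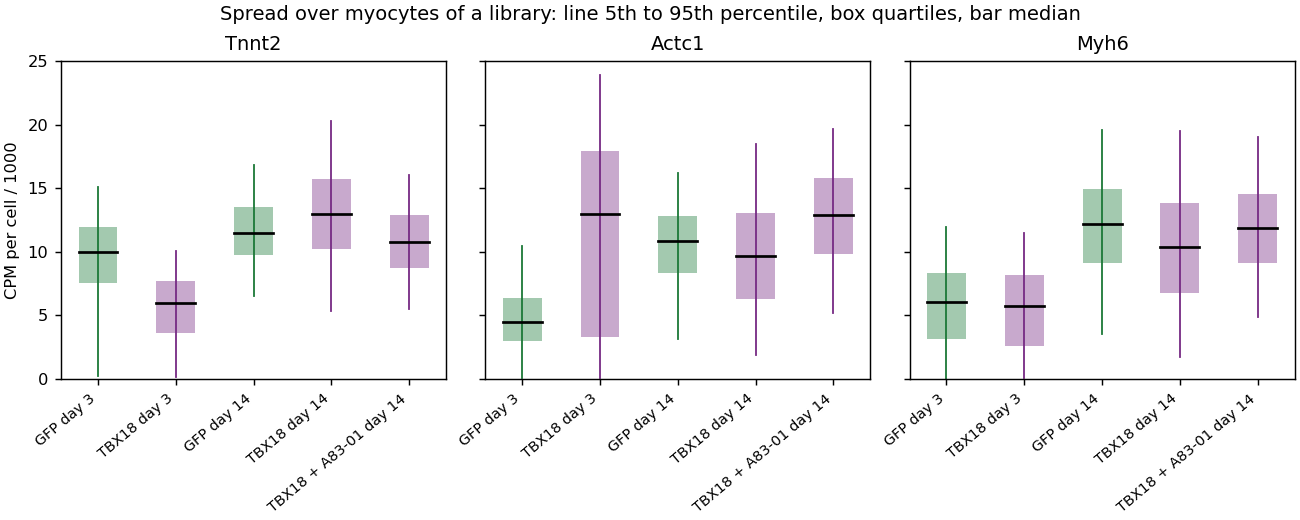
Level of Tnnt2, Actc1 and Myh6 per myocyte (CPM divided by 1000) in the 5 libraries, with the 5th to 95th percentile as a line, quartiles as a box and the median as a bar. At day 14 the medians of GFP and TBX18 lie close together, at 11504 and 12949 CPM for Tnnt2 and at 12165 and 10408 CPM for Myh6, and the TBX18 boxes are taller.

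Tnnt2 and Actc1 stood further apart at day 3 and Myh6 closer, in tables of another unit, gene list and cell filter. The rule took 5370 cells with GFP and 3402 with TBX18 at day 3. M was under 10000 CPM in 766 and 780 of these, and their part in the day 3 ratios was not tested. Actc1 was at 5046 CPM with GFP and 12446 CPM with TBX18 in day 3 myocytes (log2 ratio 1.30), and Tnnt2 at 9792 CPM and 5962 CPM (log2 ratio -0.72). Myh6 was at 6299 CPM and 5936 CPM (log2 ratio -0.09). The myocytes with TBX18 and A83-01 had 10768 CPM of Tnnt2, 12566 CPM of Actc1 and 11703 CPM of Myh6.

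Collagen UMIs in myocytes were more frequent with TBX18. Col1a1, a chain of type I collagen, stood at 254 CPM with GFP and 586 CPM with TBX18 (log2 ratio 1.20, 1.16 to 1.25). Col1a2, the partner chain, stood at 133 CPM and 296 CPM (log2 ratio 1.15, 1.09 to 1.21), and Col3a1, the chain of type III collagen, at 190 CPM and 454 CPM (log2 ratio 1.25, 1.20 to 1.31). In collagen-high cells the log2 ratios had the opposite sign, at -0.17, -0.26 and -0.04. All these values are a description, because the same genes chose both classes of cells. Under the rule M > S the log2 ratios in myocytes were 0.72 for Col1a1, 0.61 for Col1a2 and 0.82 for Col3a1. The level of S in myocytes was 1.44% of that in collagen-high cells with GFP and 3.69% with TBX18.

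The collagen level of cells with little of either sum was set beside that of the myocytes, by a limit chosen after the values were seen. Cells with both M and S under 3000 CPM numbered 183 with GFP and 94 with TBX18. Of these, 14 and 5 are also among the myocytes. Their median S was 739 CPM with GFP and 1312 CPM with TBX18, above the medians of the myocytes in both libraries. In sums over these cells, Col1a1 stood at 355 CPM with GFP and 596 CPM with TBX18, and Col3a1 at 249 CPM and 462 CPM. Col1a2 stood at 181 CPM and 265 CPM (237 to 294), the latter under its 296 CPM in TBX18 myocytes. Their median M was 522 CPM and 345 CPM, and their median depth 7794 and 13562 UMIs. Collagen UMIs were thus also present in cells low in both sums, at levels above the myocytes with GFP and on either side of them with TBX18. Whether those in myocytes come from RNA outside the cell was not tested.

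Across the transcriptome, more genes were higher than lower in TBX18 myocytes. Genes were compared where the mean of both myocyte sums reached 20 CPM, which 4760 did. Of these, 617 were at least 1.5-fold higher with TBX18, which is 13.0% of the genes compared, and 138 were at least 1.5-fold lower, which is 2.90%. At 2-fold the counts were 209 and 55, or 4.39% and 1.16%. The standard deviation of the log2 ratios over genes was 0.49, where counting error alone gives 0.07. In collagen-high cells of the same libraries 387 of 5261 genes (7.36%) were at least 1.5-fold higher and 132 (2.51%) lower.

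The split between higher and lower genes depends on the scaling. The median log2 ratio over all 4760 genes was 0.22, and with that median taken as 0 the counts were 336 higher and 261 lower, so that higher genes made up 56.3% of those past 1.5-fold in place of 81.7%. Relative to this median the log2 ratio was -0.06 for Tnnt2, -0.29 for Actc1 and -0.45 for Myh6. The direction of Tnnt2 thus turned with the scaling, while Myh6 and Actc1 stayed lower. Among myocytes with M over 20 times S, Actc1 had a log2 ratio of 0.045 and Myh6 of -0.11, so that the direction of Actc1 turned with the rule for cells.

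The abundant end of the transcriptome held the surplus of lower genes. Of the 118 genes at 1000 CPM or more on average, 11 were at least 1.5-fold lower (9.32%) and 6 higher (5.08%). Among the 1216 genes from 100 to 1000 CPM, 40 were lower (3.29%) and 155 higher (12.7%). From 20 to 100 CPM there were 87 lower (2.54%) and 456 higher (13.3%) of 3426 genes. The 50 most abundant genes of each library took 43.4% of UMIs in GFP myocytes and 35.0% in TBX18 myocytes, and 50% of UMIs were reached with 96 and 181 genes. The UMIs of TBX18 myocytes were thus spread over more genes.

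Genes higher with TBX18 were more often genes of the collagen-high class, and genes lower with TBX18 more often myocyte genes, as seen in the GFP library and with the 6 genes of the rule left out. Of 614 genes at least 1.5-fold higher, 271 (44.1%) had a level at least 2-fold higher in collagen-high cells than in myocytes with GFP, against 803 of 4754 (16.9%) among all genes tested. Of the 138 genes lower with TBX18, 92 (66.7%) were at least 2-fold higher in GFP myocytes than in GFP collagen-high cells, against 1111 of 4754 (23.4%). Both sides use the level in GFP myocytes, so a low or high level there, by chance or not, adds to these shares. In the TBX18 library the same shares were 168 of 614 higher genes (27.4%), against 12.6% of all, and 69 of 138 lower genes (50%), against 23.5%. The level in TBX18 myocytes, which helped to choose both lists, enters these shares and lowers them. That the shares were smaller there is thus partly set by the choice of genes. They were still above those of all genes. Collagen UMIs were also more frequent in the TBX18 myocytes, and their part in these shares was not tested. In a step added after the values were seen, the profile of collagen-high cells was subtracted from each myocyte sum. Its amount is set by the collagens of the rule and takes all collagen in myocytes as coming from that profile, so that it is a recalculation and no test of it. Then 582 of the 614 higher genes were past 1.5-fold the same way and 1 the other way, as were 134 and 0 of the 138 lower genes. After the subtraction 221 of 577 higher genes (38.3%) were of the collagen-high kind, against 749 of 4695 (16.0%) among all.

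**Figure D3:**
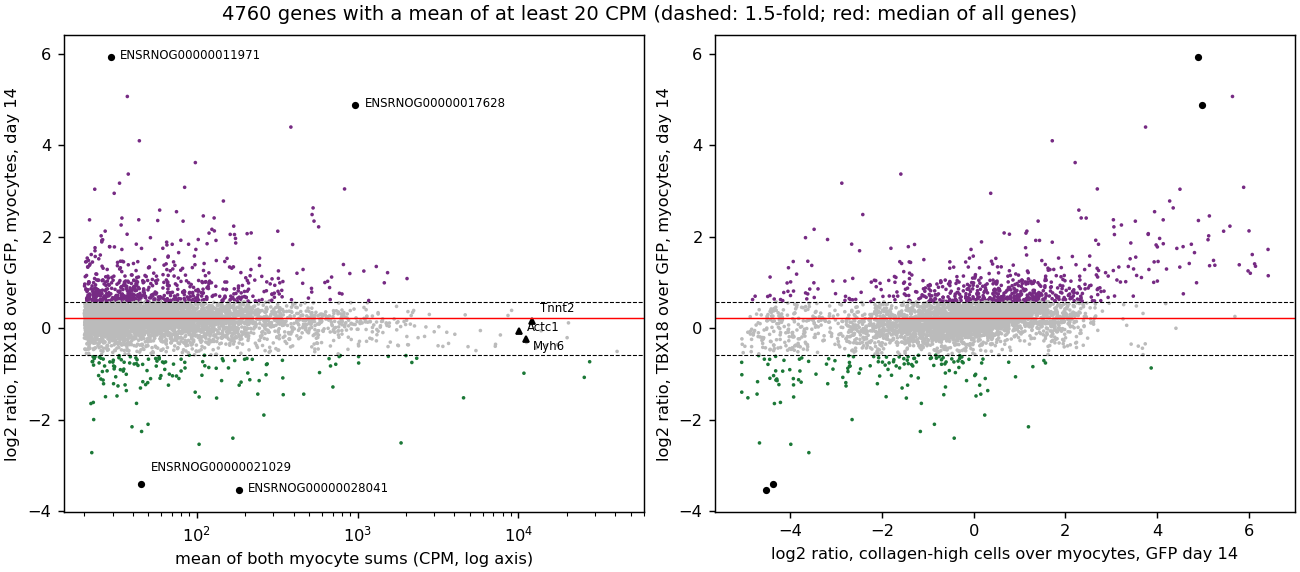
Log2 ratio of TBX18 over GFP in day 14 myocytes for 4760 genes, against mean level (left, CPM, log axis) and against the log2 ratio of collagen-high cells over myocytes in the GFP library (right). Purple genes are at least 1.5-fold higher and green genes at least 1.5-fold lower, the red line is the median of 0.22, black triangles mark Tnnt2, Actc1 and Myh6, and the 4 black dots are the named IDs, of which the higher ones lie at the collagen-high side and the lower ones at the myocyte side.

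The files give genes by Ensembl ID with no names, and the gene table used here paired none of them, so apart from the genes of the rule the leading genes are given by ID. By the end of the interval nearest 0, ENSRNOG00000011971 led the higher genes. It had 25 UMIs in GFP myocytes, 0.938 CPM (0.607 to 1.38), and 1010 UMIs in TBX18 myocytes, 57.4 CPM (53.9 to 61.1), a log2 ratio of 5.94 (5.37 to 6.57). It was detected in 1.23% of GFP and 31.8% of TBX18 myocytes, and in 0.337% and 14.5% at 5000 UMIs. Its level was higher still in collagen-high cells, at 42.4 CPM with GFP and 550 CPM with TBX18. In the cells low in both sums it stood at 2.02 CPM (0.417 to 5.91) with GFP and 228 CPM (203 to 255) with TBX18. The most positive 10% of TBX18 myocytes held 74.1% of its UMIs, and 21 myocytes had 10 UMIs or more. The proportion of the collagen-high profile set by the collagens amounts to 20.3 CPM of the 57.4 CPM, and 38.5 CPM remained after it was subtracted. Its level in TBX18 cells of other classes was therefore above that in the myocytes, and the part of RNA from those cells in the myocyte level was not tested. The log2 ratio was 4.81 with M over S, 3.39 with a pseudocount of 5 CPM and 6.86 after the subtraction, so that its size moved with these choices.

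ENSRNOG00000017628 came second, at a far higher level. It stood at 63.8 CPM (60.8 to 66.9) in GFP myocytes and 1876 CPM (1856 to 1896) in TBX18 myocytes, a log2 ratio of 4.88 (4.81 to 4.95), or 29.4-fold. A UMI was found in 25.2% of GFP and 77.6% of TBX18 myocytes, and in 11.2% and 53.9% at 5000 UMIs. The UMIs were unevenly held, with 10 or more in 296 of 1087 TBX18 myocytes (27.2%) and in 18 of 1782 GFP myocytes (1.01%). The most positive 10% of TBX18 myocytes held 79.8% of them. In collagen-high cells the gene was at 2024 CPM with GFP and 4162 CPM with TBX18, a log2 ratio of 1.04, and in cells low in both sums at 24.9 CPM and 664 CPM. In myocytes with M over 20 times S it was at 30.0 CPM in 1703 GFP cells and 1601 CPM in 853 TBX18 cells. The log2 ratio was 5.74 in these cells, which have the least collagen for their sarcomere sum, 5.66 with M over 5 times S, and 3.52 with M over S. The size of the difference thus moved with the rule for cells, and its direction did not.

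ENSRNOG00000028041 led the lower genes. It stood at 335 CPM (328 to 342) in GFP myocytes and 28.8 CPM (26.3 to 31.4) in TBX18 myocytes, a log2 ratio of -3.54 (-3.67 to -3.41). It was detected in 41.9% of GFP and 13.6% of TBX18 myocytes, and in 30.2% and 6.81% at 5000 UMIs. Myocytes with 10 or more UMIs numbered 297 with GFP (16.7%) and 8 with TBX18 (0.736%). In collagen-high cells the level was 14.1 CPM with GFP and 1.21 CPM with TBX18, and in cells low in both sums 31.0 CPM and 14.4 CPM.

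ENSRNOG00000021029 was the next lower gene, with 82.7 CPM (79.3 to 86.2) in GFP and 7.85 CPM (6.59 to 9.27) in TBX18 myocytes, a log2 ratio of -3.40 (-3.66 to -3.15). A UMI was found in 31.8% of GFP and 4.60% of TBX18 myocytes, and in 20.4% and 2.85% at 5000 UMIs. Collagen-high cells had 3.55 CPM and 0.0960 CPM, and the cells low in both sums had 0 UMIs in both libraries. Both lower genes were far more abundant in myocytes than in collagen-high cells of the GFP library, and both the share of positive cells and the level were lower with TBX18.

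The 4 genes differed in what they did in the other libraries. ENSRNOG00000017628 was higher with TBX18 at day 3 too, at 225 CPM with GFP and 1581 CPM with TBX18 in myocytes, and ENSRNOG00000021029 was lower there too, at 22.3 CPM and 3.91 CPM. ENSRNOG00000011971 was at 1.01 CPM and 2.82 CPM at day 3. ENSRNOG00000028041 had the opposite direction at day 3, at 18.5 CPM with GFP and 96.0 CPM with TBX18. In myocytes with TBX18 and A83-01 the levels were 9.82 CPM for ENSRNOG00000011971, 868 CPM for ENSRNOG00000017628, 25.9 CPM for ENSRNOG00000028041 and 1.14 CPM for ENSRNOG00000021029. Both higher genes were thus lower with A83-01 than with TBX18 alone and above GFP, while both lower genes stayed under the GFP level. The level of S in myocytes with A83-01 was 5.95% of that in collagen-high cells, against 1.44% with GFP and 3.69% with TBX18 alone. Per cell, S in the myocytes with A83-01 had a median of 131 CPM and a 95th percentile of 8160 CPM. The part of collagen-high RNA in the levels of both higher genes with A83-01 was not tested.

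**Figure D4:**
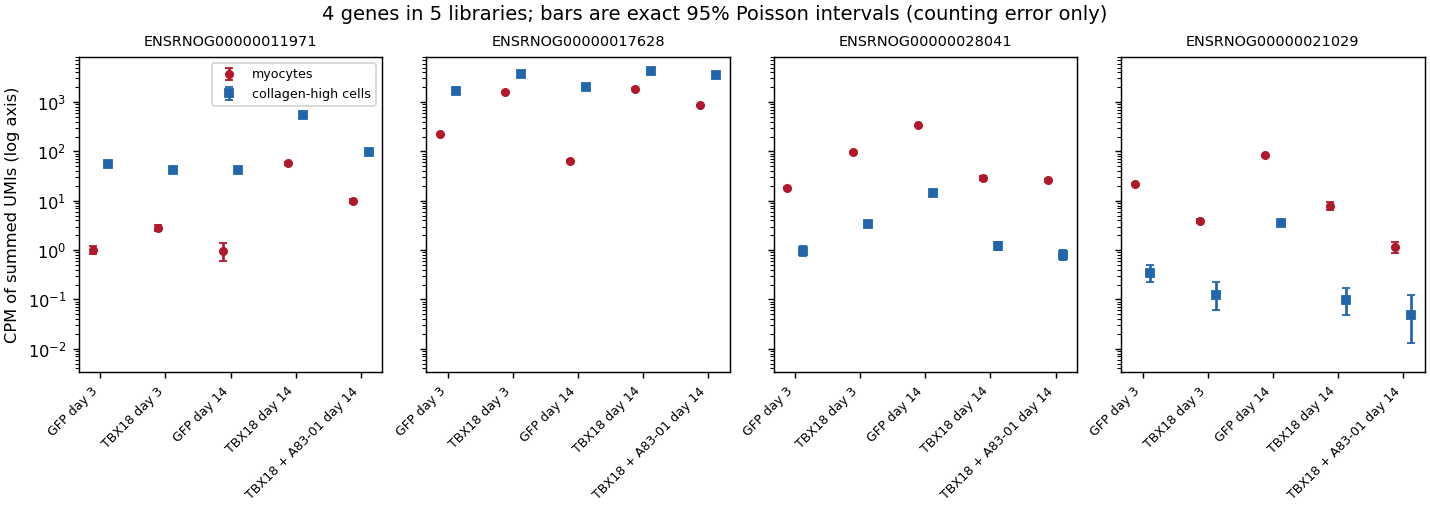
Level of the 4 IDs (CPM of summed UMIs, log axis) in myocytes (red circles) and collagen-high cells (blue squares) of the 5 libraries, with exact 95% Poisson intervals. ENSRNOG00000028041 is at 96.0 CPM in TBX18 myocytes at day 3 and 335 CPM in GFP myocytes at day 14, the higher value of each day.

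Within the TBX18 library, the 169 myocytes with a UMI of either transgene were set beside the rest. These values describe cells of 1 library that also differ in depth. ENSRNOG00000011971 stood at 103 CPM in them and 47.6 CPM in the others (log2 ratio 1.11, 0.91 to 1.30), while ENSRNOG00000017628 stood at 1818 CPM and 1888 CPM. Col1a2 was also higher in the cells with a transgene, with 358 CPM beside 282 CPM in the rest (log2 ratio 0.34, interval 0.24 to 0.44). Col1a1 stood at 655 CPM and 570.4 CPM (log2 ratio 0.20, interval 0.13 to 0.27). Col3a1 stood at 456 CPM and 453 CPM. The part of collagen-high RNA in the difference of ENSRNOG00000011971 was not tested. Among the sarcomere genes Tnnt2 stood at 11619 CPM and 13190 CPM, Actc1 at 8721 CPM and 10175 CPM (log2 ratio -0.22), and Myh6 at 10591 CPM and 10182 CPM.

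The 15 leading genes each way were read as groups. The 15 higher genes had log2 ratios from 2.49 to 5.94, and 11 of them were at least 2-fold higher in collagen-high cells than in myocytes of the GFP library, as were 16.9% of all genes. Both comparisons use the level in GFP myocytes, so a low or high level there, by chance or not, adds to such counts, as for the lower genes below. In collagen-high cells 12 of the 15 higher genes were also at least 1.5-fold higher with TBX18 and 0 lower, where 7.36% and 2.51% of all genes were. The level of S in myocytes was 1.44% of that in collagen-high cells with GFP and 3.69% with TBX18. The part of collagen-high RNA in the myocyte difference of these 12 genes was not tested. At day 3 in myocytes 8 of the 15 higher genes were at least 1.5-fold higher and 2 lower, where 10.5% and 12.5% of all genes were. The 15 lower genes had log2 ratios from -3.54 to -1.52, and 11 of them were at least 2-fold higher in myocytes than in collagen-high cells with GFP, as were 23.4% of all genes. In collagen-high cells 10 were also at least 1.5-fold lower with TBX18 and 1 higher, against 2.51% and 7.36% of all genes. The sarcomere genes of the rule were lower there too, at log2 ratios of -0.31 for Tnnt2, -1.05 for Actc1 and -1.41 for Myh6. The level of M in collagen-high cells was 3.79% of that in myocytes with GFP and 2.32% with TBX18. The part of myocyte RNA in the difference of these 10 genes was not tested. At day 3 in myocytes 6 of the 15 lower genes were at least 1.5-fold lower and 5 higher, against 12.5% and 10.5% of all genes.

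Genes past 1.5-fold at day 14 were compared with those at day 3, a comparison with no library in common. The cells taken at day 3 include 766 of 5370 with GFP and 780 of 3402 with TBX18 that had M under 10000 CPM. In day 3 myocytes 430 of 4080 genes were at least 1.5-fold higher with TBX18 (10.5%) and 511 lower (12.5%). Over the 3834 genes at the minimum level in both comparisons, 497 were higher at day 14 and 397 at day 3, and 138 were higher at both. These are 27.8% of the day 14 list, against 10.4% of all genes, and 34.8% of the day 3 list, against 13.0%. Another 62 of the 497 were at least 1.5-fold lower at day 3, which is 12.5%, close to the 11.6% of all genes. Of the 94 lower genes at day 14, 22 were lower at day 3 (23.4%, against 11.6%) and 34 were at least 1.5-fold higher there (36.2%, against 10.4%). The 22 are 4.93% of the 446 genes lower at day 3, against 2.45% of all genes. Across genes, Pearson's r of the log2 ratios was 0.16 and Spearman's rho 0.17. These are a description, since genes are not independent replicates. More of the lower genes of day 14 were thus higher than lower at day 3, while the higher genes were more often higher at both days.

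The day 3 lists were then read in the single myocytes of day 14, as the percent of a cell's UMIs they take. The 426 genes higher at day 3, without the rule's genes, took a median of 7.67% in GFP and 8.53% in TBX18 myocytes. Quartiles were 6.74% and 8.60% with GFP and 6.70% and 10.4% with TBX18, and 25.7% of TBX18 myocytes lay above the 95th percentile of GFP. The 510 genes lower at day 3 took a median of 6.48% with GFP and 6.51% with TBX18, so that the medians were close. For this list 12.1% of TBX18 myocytes lay below the 5th percentile of GFP and 10.1% above its 95th. The cell distributions thus overlapped for both lists, and TBX18 myocytes were more spread in both.

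The day 14 lists describe the same cells that gave them. The 614 higher genes took a median of 3.80% of a GFP myocyte's UMIs and 7.64% of a TBX18 myocyte's, and 67.2% of TBX18 myocytes lay above the 95th percentile of GFP. The 138 lower genes took 12.9% and 6.58%, and 67.5% of TBX18 myocytes lay below the 5th percentile of GFP. In sums over cells the higher genes went from 4.20% to 8.91% of UMIs and the lower genes from 12.7% to 6.56%. For each list, most TBX18 myocytes thus lay outside the range that holds 95% of GFP myocytes on that side, and no test is drawn from lists chosen on these cells. With TBX18 and A83-01 the medians were 4.68% and 12.6%. In collagen-high cells the higher genes took a median of 13.1% with GFP and 16.8% with TBX18, and the lower genes 2.74% and 1.95%. The part of collagen-high RNA in the myocyte shares was not tested here either.

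**Figure D5:**
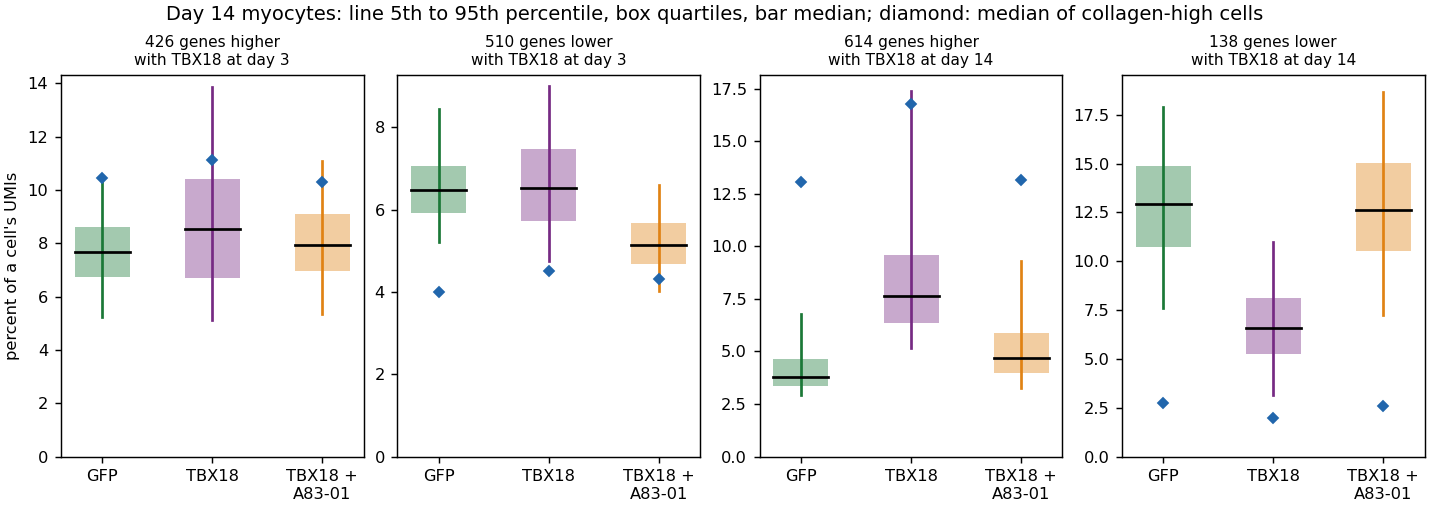
Percent of a myocyte's UMIs taken by the genes at least 1.5-fold higher or lower with TBX18 at day 3 and at day 14, in the 3 libraries of day 14 (line 5th to 95th percentile, box quartiles, bar median, diamond median of collagen-high cells). For the day 14 lists, which were chosen on the GFP and TBX18 cells shown, the TBX18 medians are 7.64% and 6.58% against 3.80% and 12.9% with GFP; for the day 3 lists they are 8.53% and 6.51% against 7.67% and 6.48%.

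The T-box core letters AGGTGT were searched on both strands of RefSeq promoters of the GRCr8 build, from 250 bases before to 50 after a gene's start. They occur in 4567 of 33469 promoters (13.6%). Of the rule's genes past 1.5-fold, Col1a2 has a promoter in the table, without a match. This describes letters in 1 window and draws nothing about the factor.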

How the data were processed

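Gene expression was measured in single cells with a droplet 3' kit, per the labels' protocols. STAR 2.7.8a, Partek and the build Rnor 6.0 are named in the submitters' processing notes, and their roles and the authors' filters are not given in the sources used here. The day 14 tables were deposited as log2 of CPM plus 1 within each cell, judging from the values. The day 3 tables were deposited as estimated counts of UMIs. For day 14, each cell's values were divided by its modal value above 0, taken to be that of 1 UMI, and 99.7% of values were then whole within 0.05. Cells held from 4645 to 33974 UMIs in the GFP and TBX18 libraries of day 14. The design named genes by symbol and planned for either unit. Of 17060 gene IDs, 0 were found in the reference table, so 21 gene lists and 8 marker lists could not be read.

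UMIs were summed over the chosen cells of a library, 26666233 with GFP and 17589304 with TBX18. Ratios are ratios of sums over totals, with exact 95% intervals given their total, and shares have Clopper-Pearson intervals. No pseudocount was used, except 0.5 CPM in ratios of collagen-high cells over myocytes. By the rule for named genes, virus features and the rule's genes were to be named, with the 15 leading genes each way where a symbol was found. With none found, 2 IDs each way are given, a change made after the data were seen. The members and lists were chosen with earlier results of these data known. Doublets stayed in. An alternative used the scores of Scrublet in scanpy 1.11.5, whose automatic threshold marked 0.0156% and 0% of cells. The 6% of barcodes with the highest scores were therefore left out. These held 17 of the 1782 GFP and 5 of the 1087 TBX18 myocytes. The alternative thus changed few of the cells compared and cannot show the effect of doublets. The recovery and the ratios were tested on simulated data. Python 3.11.15, numpy 2.4.6 and scipy 1.17.1 were used.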

Additional observations from a re-analysis of the deposited data

Results flagged for a closer look

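Some directions at day 14 in myocytes were opposite to those of the same contrast at day 3 or in collagen-high cells. With 1 library a group, none of these differences was tested. ENSRNOG00000028041 had a log2 ratio of TBX18 over GFP of -3.54 in day 14 myocytes and of 2.37 in day 3 myocytes. Tnnt2 had 0.16 in day 14 myocytes, -0.72 in day 3 myocytes and -0.31 in day 14 collagen-high cells, and its day 14 direction in myocytes turns with the scaling. Actc1 had -0.07 at day 14 and 1.30 at day 3. The collagens were higher with TBX18 in myocytes and lower in collagen-high cells, where Col1a1 had -0.17, Col1a2 -0.26 and Col3a1 -0.043. This is a description, because the collagens chose both classes of cells.

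Virus transcripts were also found in the day 14 cells that neither rule takes, which entered no comparison. The 223 such cells with TBX18 held 26 hTBX18 UMIs, or 5.21 CPM (3.40 to 7.63), and 18 ZsGFP UMIs. The 415 such cells with GFP held 884 EGFP UMIs, or 112 CPM (105 to 119).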

How the results depend on the processing

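The alternatives were the rules M > 5S and M > S, leaving out the 6% highest doublet scores, median-of-ratios scaling, a pseudocount of 5 CPM, minimum means of 5 and 100 CPM or none, equal weight per cell and thinning to 5000 UMIs. M > 20S, M of at least 10000 CPM and the subtraction of the collagen-high profile were chosen after seeing the data. A total without mitochondrial genes was not run, since those genes could not be named. No paired analysis was possible because each group has 1 library.

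Counts of genes at least 1.5-fold higher and lower were 336 and 261 under median-of-ratios scaling and 311 and 255 when it was joined to the subtraction, against 617 and 138. They were 1490 and 268 of 8601 genes at a minimum of 5 CPM, 161 and 51 of 1334 at 100 CPM, and 2636 and 590 of 16256 with no minimum and a pseudocount of 0.5 CPM, which test other numbers of genes. Under the other alternatives run they stayed within 1.5 times, as did the standard deviation of the ratios under each. Leaving out the highest doublet scores removed 17 GFP and 5 TBX18 myocytes, so that it could change these values little. The share of myocytes with GFP was 29.9% under M > S, 29.1% without the highest doublet scores and 26.5% under M > 20S, and with TBX18 it was 14.1% under M > S and 10.2% under M > 20S. Of 134 values of single genes, 76 stayed within their counting interval, 55 moved and 3 changed sign. Those 3 were the log2 ratio of Tnnt2, at -0.057 with median-of-ratios scaling alone and -0.019 when the subtraction was added, and that of Actc1, at 0.045 under M > 20S.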
